A study of Mus musculus with 24 samples.

Results

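In dorsal root ganglia of uninjured wild-type mice, 10614 m6A sites were listed that had no counterpart in the site list of nerve-lesioned ganglia. They were selected on the mutated miCLIP reads that put a site on each list, as the sites of the naive list with no lesion-list site at the same chromosome, start and strand. They made up 73.5% (95% exact binomial interval 72.7 to 74.2) of the 14446 naive-list sites and 36.2% of the 29291 sites found in either list. Of the remainder, 3832 sites stood in both lists and 14845 stood in the lesion list only, which held 18677 sites. These lists come from 1 miCLIP library a condition, so a site absent from the other list may have been missed there, and no test between the conditions is possible on the sites themselves. The intervals given for shares of sites cover counting error only.

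All material was L4/5 dorsal root ganglia of C57BL/6 mice, the ganglia that hold the cell bodies of sensory neurons projecting into the sciatic nerve. The miCLIP lesion library is labelled SNL with no day, and the miCLIP naive library is labelled naive; both were wild type and were precipitated with an m6A antibody from Synaptic Systems. Gene-level libraries were independent of the site lists. They comprised 3 wild-type libraries at day 1 after sciatic nerve injury (SNLD1), 3 Mettl14cKO SNLD1 libraries that entered the model only, 3 Mettl14cKO naive libraries with a labelled genotype of Mettl14-/-, and 3 wild-type naive libraries. MeRIP-seq, which counts RNA pulled down with the same antibody, had 3 IP and 2 input libraries for wild-type SNLD1 and the same numbers for wild-type naive. The labels give the treatment as a nerve crush or a sham operation and the titles say naive, so whether the naive mice were operated on is not settled, and the driver of the Mettl14 deletion is not named. Nor do they say whether replicates came from different animals, and each p-value below therefore covers library-to-library spread that may be technical.

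N6-methyladenosine (m6A) is a methyl mark on internal adenosines of messenger RNA. It is deposited by a nuclear complex whose catalytic core is METTL3 with METTL14, is removed by demethylases such as FTO, and is read by proteins of the YTH family. The mark falls mostly in a short consensus called DRACH, in which the methylated A follows A or G and precedes C, and it is densest near stop codons and in 3′ untranslated regions. In miCLIP the antibody is crosslinked to RNA, and the residue left on the RNA causes a mutation in the read, which gives the position of the site to a single base. In sensory ganglia m6A has been studied for its part in the response to axon injury.

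The strongest naive-only sites show what kind of sequence was listed. The 10 with the most mutated reads are given with the base listed as methylated in capitals and the 2 bases on each side in lower case, as the deposited list holds them:
Stmn3 site: tgAcc
Slc17a7 site: ggAcc
Eef1a2 site: tgAcc
Map1a site: agAcc
Nfe2l1 site: agAcc
Akap12 site: agAcc
Adra2c site: agAcc
Tspyl1 site: tgAca
Syt2 site: tgAcc
Sqle site: ggAcc
All 10 have G directly before the A, and 9 have C as the last base. The site with most mutated reads lay in Stmn3, a microtubule-destabilising stathmin of neurons, at chr2:181308824 on the minus strand (mm10), where 6 of 18 reads were mutated (share 0.333, interval 0.133 to 0.590). In Slc17a7, which encodes a vesicular glutamate transporter, 5 of 15 reads were mutated at chr7:45164062 on the plus strand, and in Eef1a2, a translation elongation factor of neurons and muscle, 5 of 14 at chr2:181149870 on the minus strand. The nearest lesion-list sites lay 1417 bases, 4684 bases and 30 bases away from the sites in Stmn3, Slc17a7 and Eef1a2, in that order. The other 7 had 4 mutated reads among 10 to 19 reads and a lesion-list site between 6 and 199 bases away.

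Longer sequence was at hand around gene starts, where 169 naive-only sites fell between 250 bases before and 50 bases after an annotated start (1.59%, interval 1.36 to 1.85). The share was 1.04% (0.747 to 1.42) for sites in both lists and 1.58% (1.39 to 1.80) for lesion-only sites. The 7 naive-only sites there with at least 2 mutated reads are shown because they are the best supported of those with flanking sequence; each has 21 bases of RefSeq GRCm38.p6, 5′ to 3′ on the strand of the gene, with the 5 bases centred on the site in capitals:
Atg101: ggaggcctGGACCggcgtctg
Ogdh: tgaacgggAGACAggtaacct
Bola2: aggtggcgGGACCcgaggcga
Klf9: gcgcggcaGGACCaggggctc
6430548M08Rik: cctcagaaGGACCcggcacgg
Ppp1r9b: agcgccgcTGACAccgcctcg
Gpr137: gcggcctgAGACCtgacatcg
The Atg101 window is chr15:101284310-101284330 on the plus strand, and Atg101 encodes a component of the complex that starts autophagy. That site had 2 of 13 reads mutated, and the nearest lesion-list site was more than 1 kb away. Ogdh, a subunit of the mitochondrial 2-oxoglutarate dehydrogenase complex, had the same counts at chr11:6291680-6291700, plus strand. The Klf9 window lies at chr19:23141237-23141257 on the plus strand, 21 bases after the start of this transcription factor gene, with 2 of 10 reads mutated and a lesion-list site 713 bases away.

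The naive-only sites rested on few reads. Their median coverage was 3 reads (quartiles 2 and 5, maximum 54), against 6 reads (4 and 11, maximum 47) for naive-list sites that were also in the lesion list. A single mutated read supported 9984 of the naive-only sites (94.1%), 555 had 2, 62 had 3 and 13 had 4 or more. Among the sites in both lists, 79.3% had a single mutated read in the naive library. In all, 75 naive-only sites (0.707%) had at least 3 mutated reads, against 5.79% of the sites in both lists. Coverage was 2 reads, the minimum in either list, at 3611 naive-only sites (34.0%), and at least 20 reads at 108 of them (1.02%), against 7.57% of the sites in both lists. The median mutated share was 0.333 at naive-only sites and 0.200 at sites in both lists, but the share cannot be lower than 1 over the coverage and no listed site exceeded 0.5, so that the 2 medians partly follow from the read numbers. Pooled over reads, 11336 of 48312 reads over naive-only sites were mutated, a share of 0.235, against 0.152 over the sites in both lists. The pooled shares also follow in large part from coverage, since each listed site has at least 1 mutated read and most have only 1. Lesion-only sites were much like naive-only sites in their own library, with a median of 4 reads, a single mutated read at 92.7%, a median share of 0.333 and a pooled share of 0.221.

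The share of naive-list sites that were naive-only fell with coverage. It was 89.7% at 2 reads, 83.4% at 3, 75.9% at 4 to 5, 61.6% at 6 to 9, 46.1% at 10 to 19 and 27.1% at 20 or more reads (108 of 398). With mutated reads it was 76.7% at 1, 49.3% at 2, 28.1% at 3 and 17.1% at 4 or more (13 of 76). In the lesion list, 93.6% of sites were lesion-only at 2 reads and 145 of 537 at 20 or more reads. Within classes of coverage, in which the reads were not matched, at least 2 reads were mutated at 22.8% of naive-only sites and 35.8% of sites in both lists at 10 to 19 reads, and at 21.3% and 49.7% at 20 or more reads. The deepest naive-only site, with 54 reads of which 2 were mutated, lay in S100b, which encodes a calcium-binding protein of glia. Next came sites in Nefl, the neurofilament light chain, with 1 of 40 reads mutated, and in Ywhag, a 14-3-3 protein, with 1 of 38.

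**Figure D1:**
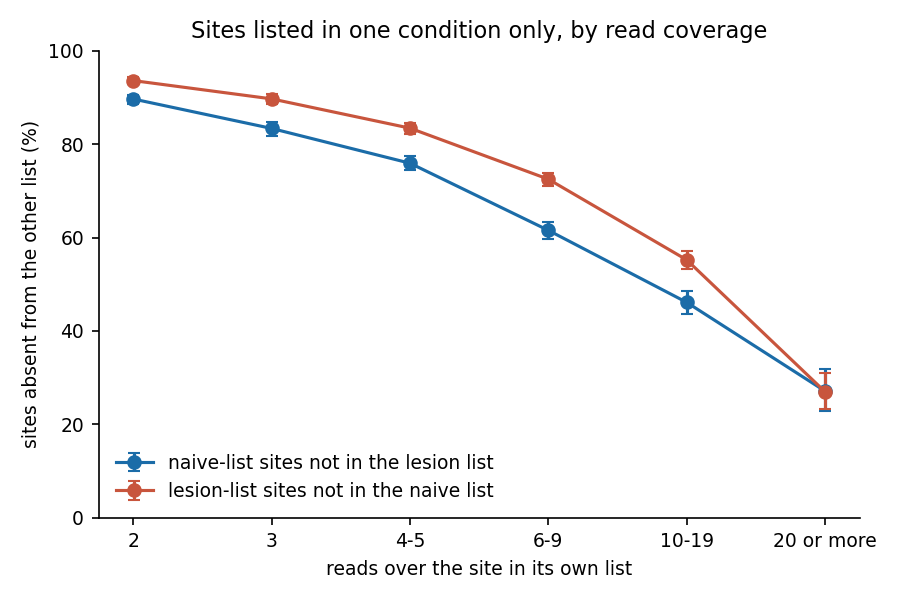
Share of naive-list sites absent from the lesion list (blue) and of lesion-list sites absent from the naive list (red), by reads over the site in its own list, in percent; bars are 95% exact binomial intervals. Both shares fall with coverage, to 108 of 398 and 145 of 537 sites at 20 or more reads.

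All 10614 naive-only sites had an A followed by C in one of 18 DRACH-type 5-base contexts, as did the rest of both lists. The most frequent were ggAcc with 15.1% of naive-only sites, ggAca with 11.5% and ggAct with 10.8%. The base before the A was G at 81.4% of naive-only sites (80.7 to 82.2) and at 89.3% of sites in both lists (88.3 to 90.3), and it was A at 18.6% and 10.7%. The 4 bases GGAC, the core of the strongest m6A contexts, were present at 37.4% and 43.6%, and C stood as the last of the 5 bases at 41.0% and 50.4%. Lesion-only sites had G before the A at 81.0%, GGAC at 36.5% and a last C at 41.2%, close to the naive-only values. Read the other way, 66.6% of naive-list ggAcc sites were naive-only, the lowest share of any context, against 88.6% of gaAca and 89.7% of taAca sites. Sites with A before the methylated base were naive-only in 82.8% of cases and those with G in 71.6%. The share was higher for A in each of the 6 coverage classes, with 94.3% for A and 88.7% for G at 2 reads, and 38 of 76 sites for A (interval 38.3 to 61.7%) and 70 of 322 sites for G (17.4 to 26.7%) at 20 or more reads.

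Most naive-only sites had a lesion-list site not far away. Within 2 bases on the same strand there was none. The motif fixes this, since each listed A has A or G before it and C after it. Within 5 bases there were 105 (0.989%), within 10 bases 460 (4.33%) and within 50 bases 2301 (21.7%). The numbers were 4654 (43.8%) within 200 bases and 6662 (62.8%) within 1000 bases. The median distance was 307 bases (quartiles 61 and 5227). From a site in both lists to the nearest other lesion-list site, the median was 73 bases, with 40.6% within 50 bases and 81.8% within 1000. From a naive-only site to the nearest other naive-list site, the median was 362 bases, with 22.8% within 50 bases and 60.6% within 1000. From a lesion-only site to the naive list these values were 635 bases, 17.2% and 54.7%. The distance followed coverage. The share of naive-only sites within 50 bases of a lesion-list site was 8.89% at 2 reads and 70.4% at 20 or more reads, and the median distance was 1788 and 36.5 bases. Of the 108 naive-only sites with 20 or more reads, 76 thus had a lesion-list site within 50 bases.

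**Figure D2:**
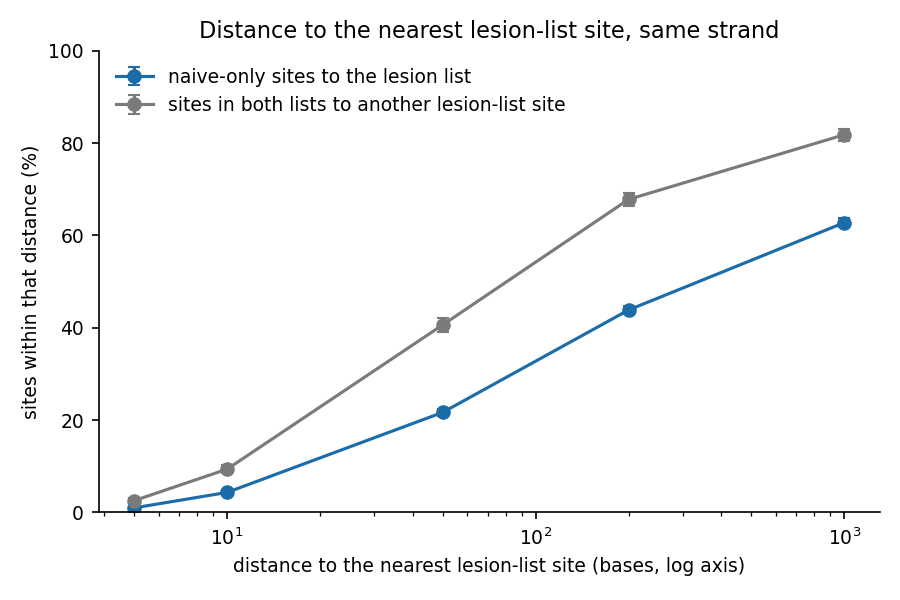
Percent of sites with a lesion-list site within the distance on the log axis (bases, same strand), for naive-only sites (blue) and, measured to another lesion-list site, for sites in both lists (grey); bars are 95% exact binomial intervals. At 50 bases the shares are 21.7% and 40.6%, and at 1000 bases 62.8% and 81.8%.

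Gene spans of RefSeq GRCm38.p6 held 10427 of the naive-only sites (98.2%), while 187 fell in none. Whether a site was in an exon, intron or untranslated region was not analysed here, because only gene spans were used. Along protein-coding spans of known strand, 35.6% of 8028 naive-only sites (34.6 to 36.7) lay in the last 10% of the span, against 31.5% (29.8 to 33.2) of 2905 sites in both lists and 36.1% of 11226 lesion-only sites. In the first 1000 bases lay 13.4% of naive-only sites, 18.2% of sites in both lists and 12.7% of lesion-only sites. The distance to the 3′ end had a median of 4018 bases at naive-only sites and 3859 bases at sites in both lists, and 42.6% and 43.2% lay within 3000 bases of that end. In those first 1000 bases the intervals were 12.7 to 14.2% for naive-only sites and 16.9 to 19.7% for sites in both lists, and they do not overlap.

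**Figure D3:**
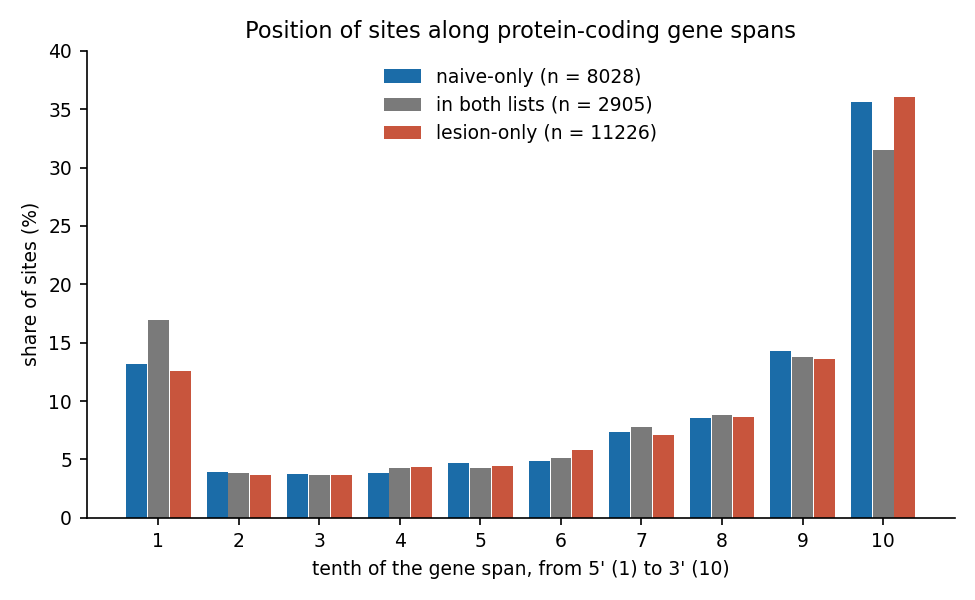
Percent of sites in each 10% of protein-coding gene spans, from 5′ to 3′, for naive-only (blue), both-list (grey) and lesion-only (red) sites; genes of known strand and sites in a single span only. The last 10% holds 35.6%, 31.5% and 36.1% of the sites.

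The X chromosome had a high share of naive-only sites. Of its 246 naive-list sites 204 were naive-only (82.9%, 77.6 to 87.4), against 10403 of 14192 on autosomes (73.3%, 72.6 to 74.0). By coverage, the shares were 88.0% on X and 89.7% on autosomes at 2 reads. At 3 to 5 reads they were 84.8% (89 of 105 sites, 76.4 to 91.0) and 79.1%. At 6 to 9 reads they were 81.3% (26 of 32 sites, 63.6 to 92.8) and 61.3%, and at 10 or more reads 61.5% (16 of 26 sites, 40.6 to 79.8) and 42.3%. Among single autosomes the share ran from 67.1% on chromosome 13 to 78.7% on chromosome 16. The X chromosome was picked after its value was seen, and the intervals cover counting error only. They therefore cannot decide whether X differs from the autosomes, and this was not tested. All 5 naive-list sites of the mitochondrial genome were naive-only. The lesion list held 7 sites there, and the lists shared none of them.

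The naive-only sites fell in 4359 host genes, of which 4239 (97.2%) code for protein. Of the hosts, 2106 held 1 naive-only site, 913 held 2, 483 held 3 and 857 held 4 or more. A lesion-list site also lay somewhere in the span of 3242 hosts (74.4%). The remaining 1117 hosts (25.6%) had no lesion-list site and held 1479 naive-only sites (13.9%). Those 1479 sites had a median of 2 reads, 97.6% had 1 mutated read and none reached 20 reads. The 8981 naive-only sites of the other hosts had a median of 4 reads and 1 mutated read at 93.5%.

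The genes with most naive-only sites are large neuronal and structural genes that were listed heavily in both conditions. Map1a, a microtubule-associated protein of mature neurons, held 46 naive-only sites beside 60 in both lists and 45 lesion-only sites. Plec, the cytoskeletal linker plectin, held 42, 50 and 47 in the same order, and Map1b, a microtubule-associated protein of growing axons, 27, 36 and 31. Apc2, a neuronal relative of the APC protein, held 30 naive-only, 10 shared and 25 lesion-only sites. Ahnak, a very large scaffold protein, held 27, 10 and 41, and Prune2 held 26, 17 and 39. Akap12, which anchors protein kinase A, held 23, 20 and 18, and Kif1a, a motor for synaptic vesicle precursors, held 23, 5 and 23. Among 210 genes with at least 20 listed sites, 45 had more naive-only than lesion-only sites, 152 had fewer and 13 had equal numbers. The naive-only part of their single-list sites had a median of 43.9%, against 41.7% over all sites. Syt2, a calcium sensor of synaptic vesicle release, leaned toward the naive list with 21 naive-only, 3 shared and 7 lesion-only sites. Its naive-only sites had up to 16 reads, and 1 of them had 4 mutated reads. Syt2 and Apc2 were low in RNA-seq, so that their site numbers did not come with high counts there. Syt2 was at 3.07, 0.915 and 1.22 CPM (counts scaled to the TMM-adjusted library total) in wild-type SNLD1 libraries, against 2.22, 1.91 and 1.75 CPM in wild-type naive libraries, and the groups overlapped. At the other end Fam53c held 1 naive-only, 4 shared and 15 lesion-only sites.

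Among hosts with no lesion-list site, Endov, an endonuclease that cuts at inosine, held most, with 6 naive-only sites. Frmd4a, a scaffold of cell polarity, Kctd16, a subunit of GABA-B receptor complexes, Stat2, a transcription factor of interferon signalling, Ccdc184, Kansl1, a subunit of a histone acetyltransferase complex, Mfsd12, a lysosomal transporter, and Oprl1, the nociceptin receptor, held 5 each. In Oprl1, the naive-only site at chr2:181719348 on the plus strand, in the context ggAcc, had 1 mutated read of 9. In Stat2, the site at chr10:128291343 on the plus strand, in the context ggAct, had 2 mutated reads of 4, and the nearest lesion-list site lay 39523 bases away. In Kctd16 the highest coverage was 10 reads, 2 of them mutated. None of the 41 sites in these 8 genes had more than 2 mutated reads. Mfsd12 had 0 counts in all 3 naive wild-type RNA-seq libraries and all 4 MeRIP-seq inputs, and 2 of its 5 sites also lay in another gene span, so which transcript carried them is not settled.

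Genes with more RNA were more often hosts. The share of genes hosting a naive-only site was 3.53% below 1 CPM in naive wild-type RNA-seq, 22.1% from 1 to 10 CPM, 31.6% from 10 to 30, 33.8% from 30 to 100, 36.7% from 100 to 300 and 50.5% at 300 CPM or more. The part of the hosts without a lesion-list site was 30.8% below 1 CPM (123 of 399), 24.9% from 30 to 100 CPM, 93 of 490 from 100 to 300 CPM and 66 of 330 at 300 CPM or more. CPM does not correct for gene length, and no length was used.

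Most members of the cytoskeletal, motor, synaptic vesicle and channel lists hosted naive-only sites. These sites were not more numerous than lesion-only sites there. Of all genes, 22.1% were hosts from 1 to 10 CPM, 31.6% from 10 to 30 and 33.8% from 30 to 100. The share was 36.7% from 100 to 300 CPM and 50.5% at 300 CPM or more. No list in this paragraph was matched to all genes by CPM, so whether its share of hosts differs was not tested. Naive-only sites lay in 24 of 26 neuronal cytoskeleton genes (237 sites), 18 of 20 axonal transport motor genes (120 sites), 22 of 24 synaptic vesicle genes (100 sites) and 24 of 34 sensory channel and receptor genes (105 sites). The same hosts held 307, 173, 102 and 144 lesion-only sites, in that order. Ank2, an ankyrin linking membrane proteins to spectrin, held 23, Bsn, a presynaptic scaffold, held 17, and Piezo2, the mechanosensitive channel of touch neurons, held 11. In axon guidance genes the number was 10 of 27 (30 sites), with 8 in Efnb2, an ephrin ligand. Chromatin and transcription regulators had 18 hosts of 28, with 10 sites in the nucleosome remodeller Chd3, and splicing and RNA-binding genes had 13 of 27. Of the m6A machinery 8 of 19 genes were hosts, and Wtap and Zc3h13, subunits of the methyltransferase complex, and Ythdf1, a reader, had no lesion-list site, whereas Rbm15, Ythdf2 and Ythdf3 were listed in the lesion library only. Mettl14 had no site in either list. Regeneration-associated genes, which respond to axon injury, were hosts in 12 of 38 cases (33 sites), and 10 further members had lesion-list sites only, among them Atf3, a transcription factor induced by axon injury, with 15 sites.

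Marker genes of neurons, glia and fibroblasts were among the hosts. Naive-only sites lay in 9 of 10 sensory neuron markers, 7 of 10 satellite glia markers, 4 of 10 myelinating Schwann cell markers, 4 of 7 fibroblast markers and 1 of 8 endothelial and mural markers. None lay in the 10 macrophage, 8 neutrophil or 7 skeletal muscle markers, of which C1qc, S100a9 and Ngp had lesion-list sites only. In naive wild-type libraries these markers summed to 73.1 to 94.0 CPM (macrophage), 169 to 1481 CPM (neutrophil) and 9.27 to 14.5 CPM (muscle). Of all genes, 3.53% were hosts below 1 CPM and 22.1% from 1 to 10 CPM. The sensory neuron markers summed to 14952 to 15989 CPM in SNLD1 libraries and 14656 to 15796 CPM in naive libraries, so that the labelled tissue was met by its markers.

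Gene-level RNA-seq asked whether the hosts changed their RNA after the lesion. It used other libraries than the site lists, and changes were called in edgeR at an adjusted p under 0.05 over all 13291 genes tested. In wild-type ganglia at SNLD1 against naive, 18 of 3895 hosts tested rose (0.462%) and 4 fell (0.103%). Of all genes tested 0.948% were higher and 0.0752% were lower. At an unadjusted p under 0.05, 130 hosts were higher (3.34%) and 111 lower (2.85%), against 4.84% and 2.51% of all genes. The called hosts numbered 6 higher without naive replicate 1, 8 without naive replicate 3, 10 without SNLD1 replicate 1 and 7 without SNLD1 replicate 3. Of all genes tested, 60, 63, 92 and 74 were higher in these fits. Hosts called lower numbered 6 without naive replicate 2 (14 of all genes) and 0 without any other single library. DESeq2 called 34 hosts higher and 11 lower, edgeR with no filter on low counts 34 and 9, and edgeR on only the libraries compared 11 and 1. Over all genes, these settings called 190 and 21 of 13291, 232 and 24 of 21184, and 96 and 1 of 12951. Among the hosts without a lesion-list site, 3 of 951 rose and 2 fell, with a median log2 change of -0.05, and 39.4% of them were above 0. Hosts with a lesion-list site had 15 of 2944 higher and 2 lower, with a median of -0.05. Genes with lesion-only sites and no other had 38 of 1626 higher (2.34%) and 1 lower, with a median of 0.00, and all genes tested had a median of -0.01, with 47.1% above 0. The medians of the hosts are small beside the libraries' spread: without naive replicate 3 or without SNLD1 replicate 2, the median of hosts with a lesion-list site was 0.00 in place of -0.05. In bulk ganglia, fewer cells of a type and less RNA per cell cannot be told apart. Summed macrophage markers were 99.3 to 129 CPM in SNLD1 and 73.1 to 94.0 CPM in naive libraries, and their part in these changes was not tested.

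**Figure D4:**
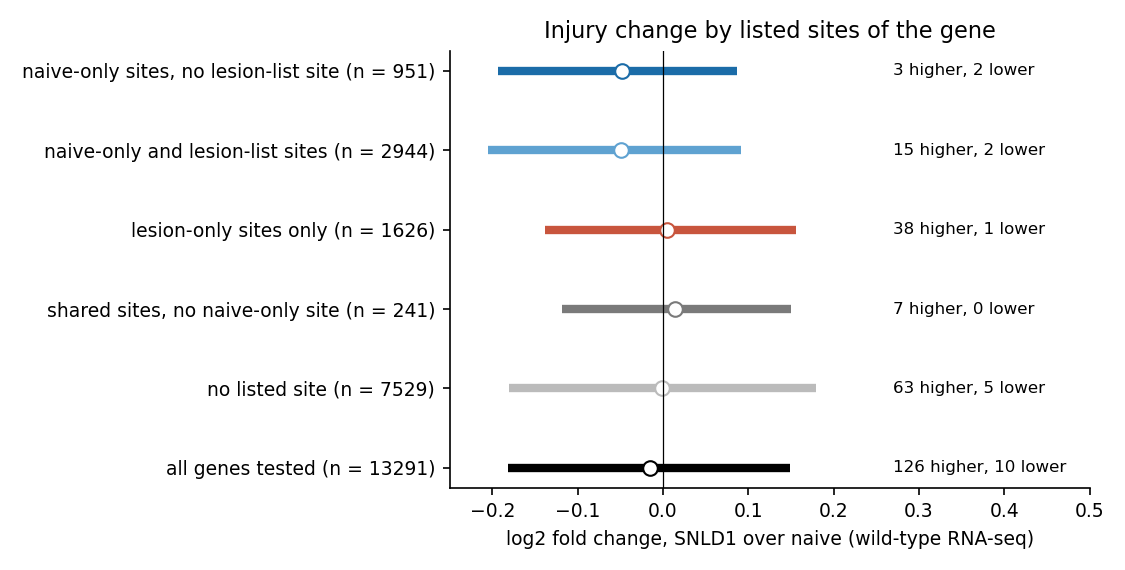
Median log2 fold change (circles) and quartiles (bars) of SNLD1 over naive in wild-type RNA-seq, by the sites listed in the gene, with the number of genes called in edgeR at the right. Genes with naive-only and no lesion-list sites have a median of -0.05, and all genes tested have -0.01.

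The 5 called genes that had naive-only sites and no lesion-list site were Stat2, Fndc4, Abca1, Fam13a and Smad9. Stat2, which carries interferon signals to the nucleus and was listed at 5 sites, had 27.3, 24.6 and 28.2 CPM in SNLD1 libraries, against 13.0, 12.3 and 14.4 CPM in naive libraries. All SNLD1 values were above all naive values, and the log2 change was 1.01 ± 0.16 (SE, edgeR adjusted p 0.00256). It was called in each fit that left out 1 library. Abca1, a cholesterol exporter, had 66.7, 73.9 and 83.0 CPM in SNLD1 libraries, against 42.8, 43.9 and 33.0 CPM in naive libraries, again without overlap (log2 0.90 ± 0.19, adjusted p 0.0218 with edgeR). Fndc4, a secreted protein with a fibronectin domain, rose by log2 1.10 ± 0.23 (adjusted p 0.0197 with edgeR) and had 19.6, 15.0 and 22.9 CPM in SNLD1 libraries, against 7.45, 7.23 and 11.8 CPM in naive libraries. The fall of Fam13a was -1.11 ± 0.26 (adjusted p 0.0464 with edgeR), at 10.9, 13.3 and 11.3 CPM in SNLD1 libraries against 21.5, 30.1 and 25.2 CPM in naive libraries. Smad9, a transcription factor of BMP signalling, had a change of -0.998 ± 0.23 (adjusted p 0.0476 with edgeR), at 4.91, 5.26 and 4.76 CPM in SNLD1 libraries against 10.3, 7.64 and 11.8 CPM in naive libraries. In each of the 5 genes the groups did not overlap, yet the call of Fam13a was lost in all 6 fits that left out 1 library. The call of Smad9 was lost in 5 (all but that without naive replicate 2), that of Fndc4 in 4 (naive replicates 1 and 2, SNLD1 replicates 1 and 3) and that of Abca1 in 3 (naive replicates 1 and 3, SNLD1 replicate 3). With only the libraries compared in the edgeR fit, Smad9 (adjusted p 0.139) and Fndc4 (0.0835) were not called either.

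**Figure D5:**
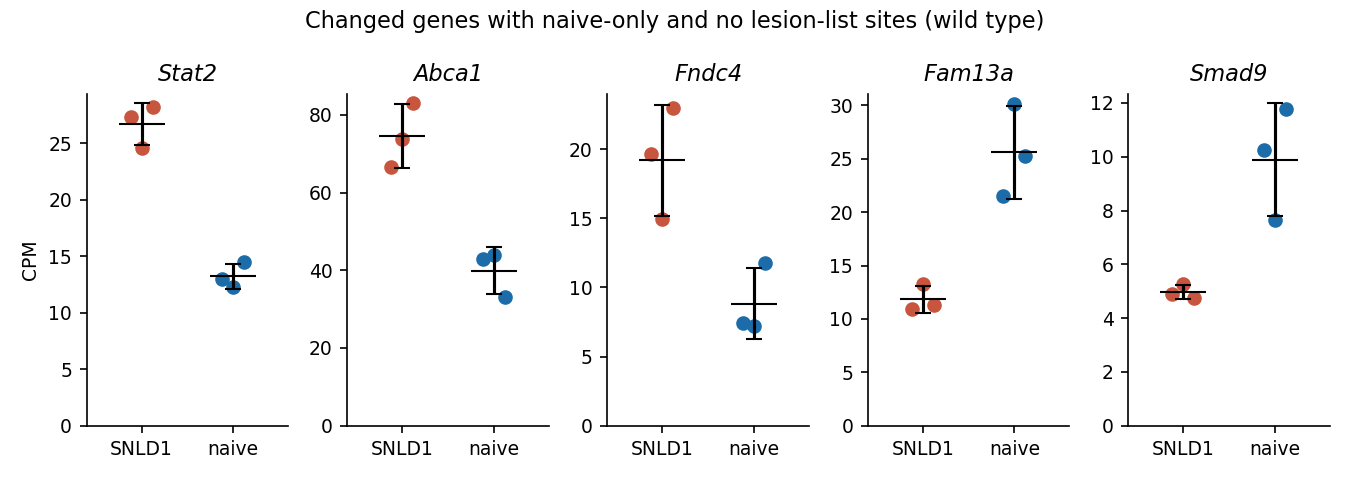
CPM of the 5 called genes with naive-only and no lesion-list sites, in 3 SNLD1 (left, red) and 3 naive (right, blue) wild-type libraries; points are libraries, horizontal marks the mean and vertical bars the SD. Stat2, Abca1 and Fndc4 are higher and Fam13a and Smad9 lower in SNLD1 libraries, without overlap.

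The largest rises among hosts belonged to genes with sites in both libraries. Dclk3, a doublecortin-like kinase, had 5 naive-only, 1 shared and 4 lesion-only sites. It was at 68.7, 78.9 and 80.0 CPM in SNLD1 libraries, against 18.7, 22 and 26.1 CPM in naive libraries, with no overlap (log2 1.77 ± 0.19, edgeR adjusted p 2.36e-05). Rcan1, an inhibitor of calcineurin, rose by log2 1.54 ± 0.25 and Slc10a6, a transporter of steroid sulfates, by 1.48 ± 0.26. Coil, the scaffold of Cajal bodies, rose by 1.48 ± 0.31 and Rhoq, a small GTPase, by 1.19 ± 0.18. Of the 12 regeneration-associated hosts, 3 rose and none fell. These were Jun, an AP-1 transcription factor of the axon injury response, with 5 naive-only, 14 shared and 11 lesion-only sites, Klf6, a zinc-finger transcription factor, and Itga7, a laminin receptor subunit, at log2 1.30 ± 0.28, 1.17 ± 0.18 and 1.26 ± 0.28. Over all 34 tested members of that list, 17 rose and none fell, with a median of 1.15, against a median of 0.30 over its 12 hosts. Atf3, with no naive-only site, was at 380, 243 and 505 CPM in SNLD1 libraries, against 8.51, 9.41 and 11.1 CPM in naive libraries (log2 5.27 ± 0.27, edgeR adjusted p 2.49e-09). Hosts that fell also included Shox2, a homeobox transcription factor, at -0.99 ± 0.23, and Lrrn1, a leucine-rich repeat membrane protein, at -0.57 ± 0.13. Of the 131 tested hosts among the cytoskeletal, motor, synaptic, channel, guidance, chromatin, splicing and m6A machinery genes, edgeR called none. Of all genes tested, 0.948% were called higher and 0.0752% lower. At an unadjusted p under 0.05 with edgeR, 6 of the 131 hosts were higher and 2 lower, against 4.84% and 2.51% of all genes. DESeq2 called 2 of these hosts higher, Syt4, a synaptotagmin, and Tet3, a 5-methylcytosine oxidase. Cnst, which held 11 naive-only, 6 shared and 12 lesion-only sites, was at 564, 781 and 744 CPM in SNLD1 libraries, against 314, 340 and 358 CPM in naive libraries (log2 1.05 ± 0.15, edgeR adjusted p 0.000704). Dclk3, Rcan1, Rhoq, Klf6, Cnst and Atf3 were called in each fit that left out 1 library. Jun, Itga7 and Coil were called only without SNLD1 replicate 2, Shox2 only without naive replicate 2, Lrrn1 in none of them, and Slc10a6 in all but those without naive replicate 1 or 3. Jun (adjusted p 0.0683), Itga7 (0.112), Shox2 (0.117) and Lrrn1 (0.135) were also not called by edgeR with only the libraries compared, nor was Lrrn1 with size factors in place of TMM or with no filter.

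The Mettl14cKO libraries gave the difference of host RNA from wild type in naive ganglia. Whether differences came from loss of the methyltransferase complex or from other differences between the genotypes, including sequence near the Mettl14 allele, was not tested. Mettl14 itself was at 14.2, 18.9 and 15.0 CPM in Mettl14cKO naive libraries, against 23.3, 22.9 and 24.1 CPM in wild-type naive libraries; the groups did not overlap, and the log2 difference was -0.55 ± 0.17 (edgeR adjusted p 0.316). The wild-type naive libraries are the same as those of the injury comparison. In naive ganglia 5 of 3895 hosts were higher in Mettl14cKO and 2 were lower, where 0.173% and 0.113% of all genes tested were called. With no filter edgeR called 12 hosts higher and 13 lower, DESeq2 called 7 and 6, and edgeR on only the libraries compared called 4 and 1. Over all genes, these settings called 107 and 84 of 21184, 45 and 32 of 13291, and 26 and 15 of 12770. Pi4kb, a phosphatidylinositol 4-kinase, was at 5.83, 5.06 and 6.70 CPM in Mettl14cKO libraries, against 1.35, 0.818 and 0.456 CPM in wild-type libraries (log2 2.76 ± 0.37, edgeR adjusted p 0.00177). Nrg1, a growth factor that axons present to Schwann cells, was at 58.0, 112 and 87.2 CPM, against 33.4, 23.0 and 34.5 CPM in wild-type libraries (log2 1.49 ± 0.22). Shoc2, a scaffold of the MAP kinase pathway, Rnf146, a ubiquitin ligase, and Trmt12, a tRNA-modifying enzyme, were higher by log2 1.18, 0.95 and 0.73. Prune2, with its 26 naive-only sites, was at 278, 343 and 377 CPM in Mettl14cKO libraries, against 644, 554 and 654 CPM in wild-type libraries (log2 -0.89 ± 0.15, edgeR adjusted p 0.011), without overlap. Nefh, the neurofilament heavy chain with 8 naive-only sites, was lower by log2 -0.75 ± 0.14. Of the 951 hosts without a lesion-list site, none was called with edgeR, and DESeq2 called 1 lower. At an unadjusted p under 0.05, 32 of them were higher (3.36%) and 31 lower (3.26%), against 4.33% and 3.27% of all genes. Pi4kb and Nrg1 were called in each fit that left out 1 library. Prune2 was not called without wild-type replicate 1 or 3 or Mettl14cKO replicate 2, Shoc2 not without wild-type replicate 1 or Mettl14cKO replicate 2, Rnf146 only without Mettl14cKO replicate 1, Nefh only without wild-type replicate 2, and Trmt12 in none of these fits. With only the libraries compared, edgeR also did not call Nefh (adjusted p 0.0832) or Trmt12 (0.141), and Trmt12 was not called with size factors in place of TMM.

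MeRIP-seq asked whether genes with naive-only sites were enriched in the pulldown. With edgeR no gene of 14705 was called in naive IP over input, in SNLD1 IP over input or in the change between them (0% called each way). At an unadjusted p under 0.05, 170 of 4190 hosts tested were higher in naive IP (4.06%) and 110 lower (2.63%), against 2.43% and 3.79% of all genes. In SNLD1 IP 98 hosts were higher (2.34%) and 85 lower (2.03%), against 1.65% and 2.49%. The change with injury was higher for 5 hosts and lower for 5 (0.119% each), against 0.150% and 0.0544%. DESeq2 called 1 host in each direction in naive ganglia (1 higher and 3 lower of all genes), and none in SNLD1 ganglia or for the change. In naive ganglia the median log2 of IP over input was 0.09 for hosts without a lesion-list site, 0.51 for hosts with one, 0.15 for genes with lesion-only sites only, -0.15 for genes with no listed site and 0.07 over all genes tested. In SNLD1 ganglia the medians were 0.15, 0.49, 0.16, -0.08 and 0.10. The change of enrichment with injury had a median of 0.04 for hosts without a lesion-list site and -0.03 for hosts with one, against 0.05 over all genes. The enrichment of hosts with a lesion-list site was above that of all genes in every fit that left out 1 library, but its size depended on single libraries: in SNLD1 ganglia it was 1.24 without input replicate 2 and 0.19 without input replicate 1 or IP replicate 1. The median of hosts without a lesion-list site was -0.06 without naive IP replicate 1 and -0.13 without SNLD1 IP replicate 1. With DESeq2 size factors in place of TMM, the median over all genes was 0.16 in naive ganglia and -0.06 for the change with injury, and that of hosts with a lesion-list site was 0.60 and -0.11. Without SNLD1 input replicate 2, the change of these hosts was 0.73, so the direction of the change was not settled. Of the genes named above, Endov had a log2 of 2.42 ± 1.07 in naive ganglia and Oprl1 1.47 ± 1.03, neither called. The Prune2 value of -3.11 rested on 1 naive input library at 13247 CPM, against 440 CPM in the other, and was not called.

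Total counts ran from 5707837 to 12639160 per library for RNA-seq and from 846785 to 19653733 for MeRIP-seq. The smallest MeRIP-seq libraries were an IP library of naive ganglia and 1 of only 2 input libraries of SNLD1 ganglia. The precision of the gene-level values is set by the number of libraries, and that of the site values by the 2 to 54 reads over a site.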

How the data were processed

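Sites came from 2 miCLIP lists, naive and lesion, with 1 library each. The authors deposited, for each site, a score (a value of unit other) that equals mutated reads over reads at every site to within 1e-05, and a name with the 5 bases around it. The counts per gene symbol deposited by the authors for RNA-seq and MeRIP-seq are whole numbers and not normalized. The submitters' processing notes name Trimmomatic, STAR, DESeq2 and mm10; the sources used here do not state which step each served, what counted the reads or what called the sites. Per the labels' protocols, poly(A) RNA from Trizol extracts went into Smart-seq2 libraries.

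Sites were matched by chromosome, start and strand. The site is the base after the start in the list, since the 5 bases of 457 of 457 sites within RefSeq GRCm38.p6 gene-start windows matched that sequence. Sites were assigned to gene spans on the same strand, or on either strand for 968 hosts with no strand in the table. Of the 4359 hosts, 4278 were found by symbol in the count tables. Shares carry 95% Clopper-Pearson intervals, which cover counting error only because reads are not known to be independent molecules.

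Counts were fitted with edgeR 4.0.16 in R 4.3.3 (filterByExpr, TMM, glmQLFit, glmQLFTest) over 12 RNA-seq libraries in 4 groups and over 10 MeRIP-seq libraries in 4 groups, with Benjamini-Hochberg adjustment over all genes tested and calls at an adjusted p under 0.05. The scripts were tested on simulated data. Alternatives were DESeq2 1.42.0, size factors, no filter, the replicate number as a block, only the libraries compared, each library left out, and for sites other matching, read and mutated-read minimums and gene assignments. Named genes were the 8 with most naive-only sites, the 8 with most among hosts without a lesion-list site, up to 8 called hosts in each direction by largest change at 5 CPM or more without overlap, up to 3 top hosts per gene list, Mettl14 and Atf3. Named sites were the 10 with most mutated reads. Other called hosts, Syt2 and Fam53c as leaning genes, and the X chromosome were picked after their values were seen. The members and the lists were chosen with earlier results of these data known.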

Additional observations from a re-analysis of the deposited data

How the results depend on the processing

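With at least 20 reads required in both lists, 158 sites were naive-only (39.7% of such naive-list sites), and with at least 3 mutated reads in both 227 (76.4%); counting a lesion-list site within 10 bases as the same left 70.3%. Among naive-only sites with at least 20 reads the median mutated share was 0.0455, G preceded the A at 64.8% and 70.4% had a lesion-list site within 50 bases. With at least 3 mutated reads the last 2 shares were 98.7% and 48.0%. Host counts stayed within 1.5 times under each gene assignment tried. For SNLD1 over naive, hosts called higher and lower numbered 34 and 11 with DESeq2 (190 and 21 of all genes tested). They were 34 and 9 with no filter (232 and 24) and 11 and 1 with only the libraries compared (96 and 1). Leaving out each library in turn gave 6 to 26 and 0 to 6 hosts (60 to 130 and 1 to 14 of all genes). For Mettl14cKO over wild type, no filter gave 12 and 13 hosts (107 and 84 of all genes). DESeq2 gave 7 and 6 (45 and 32), and only the libraries compared 4 and 1 (26 and 15). Leaving out each library in turn gave 2 to 6 and 0 to 5 hosts (9 to 27 and 2 to 17 of all genes). For naive IP over input, DESeq2 called 1 and 1 (1 and 3 of all genes). No filter gave 2 lower (3 higher and 6 lower of all genes). The causes were not tested.

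Whether the replicate numbers pair the samples is not settled. Same-numbered SNLD1 and naive libraries had correlations of deviations of -0.01, 0.57 and 0.06. Those of Mettl14cKO and wild-type naive libraries were 0.00, 0.22 and 0.11. MeRIP-seq IP and input libraries had -0.22 and -0.29 (naive) and -0.02 and -0.07 (SNLD1). Same-numbered IP libraries of naive and SNLD1 ganglia were not compared in this way. Their TMM factors were 1.33 and 1.35 (number 1), 1.25 and 1.15 (number 2), and 0.894 and 0.893 (number 3). With the replicate block, hosts called were 23 higher and 5 lower for SNLD1 over naive, and 6 higher and 5 lower for Mettl14cKO. All genes called were 145 and 10, and 32 and 18, of 13291 tested. For naive IP over input, 28 of 4190 hosts tested were higher and 237 lower, against 48 and 1030 of all 14705 genes. For SNLD1 IP over input these were 27 and 213, against 44 and 892. Coverage of 2 to 5 reads at most naive-only sites limits what their absence from the lesion list shows.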

Other observations

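Outside the neurons, fibroblast genes of the extracellular matrix also hosted naive-only sites. Col3a1, the chain of type III collagen, held 7 naive-only, 0 shared and 2 lesion-only sites, Col1a2, a chain of type I collagen, held 4, 0 and 1, and Col1a1 held 2, 1 and 1. Dcn, a small proteoglycan that binds collagen, held 1 naive-only site and no lesion-list site. Pdgfra, another fibroblast marker, had lesion-list sites only. The 7 fibroblast markers summed to 1721 to 2185 CPM in SNLD1 libraries and 1745 to 1972 CPM in naive libraries, and of the 6 tested, edgeR and DESeq2 called 0 (0 higher and 1 lower at an unadjusted p under 0.05). Of the glial marker lists, Prx, a scaffold of myelinating Schwann cells, held 5 naive-only, 9 shared and 13 lesion-only sites, and Sparc, a matrix protein of satellite glia and other cells, held 8, 3 and 8. The glial markers Cdh19, Gfap, Drp2 and Ncmap had lesion-list sites only, while Fabp7 had naive-only and no lesion-list sites. These genes were picked after their values were seen, and with 1 miCLIP library a condition the difference between them was not tested.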
